A study of Mus musculus with 9 samples.

Results

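Opsins, the light-sensitive receptors that bind a retinal chromophore, were followed in mouse retinal organoids through 7 genes: Opn1sw, Opn1mw, Opn3, Opn4, Opn5, Rgr and Rrh. All gene spots whose name on the array is one of these genes were taken, which gave 13 probes among 56605 different gene probes. For 5 of the 7 genes (Opn1sw, Opn3, Opn4, Rgr and Rrh) a probe was detected, that is, well above background, on 3 or more of the 9 arrays, and these 5 entered the tests with 23594 genes in all. Opn1mw and Opn5 did not pass that filter and are described by their signal alone. The filter asks for signal on some arrays, so the 5 tested genes do not stand for all 7.

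The organoids, retinal tissue formed by mouse ES or iPS cells aggregated in floating culture, came from 3 cell lines: wild type (WT), a Bhlhb4 knockout (B4KO; the gene is now Bhlhe23) and an Islet-1 knockout (Isl1KO), both engineered to lower the number of bipolar cells. From each line 1 sample was taken at differentiation days 10 (DD10), 16 (DD16) and 23 (DD23). A sample was a pool of 5 organoids. Nothing was replicated within a line and day, and the 3 arrays of a day are 3 different lines. The labels used here do not say whether a line is a single clone or whether the lines share a parent.

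Opn1sw and Opn1mw encode the short-wavelength and middle-wavelength cone opsins, which start phototransduction in cones through the cone transducin Gnat2. In mouse retina the short-wavelength opsin appears earlier in development than the middle-wavelength opsin, and many mouse cones make both, in proportions that vary from dorsal to ventral retina. Opn4 encodes melanopsin, which signals through Gq proteins and phospholipase C in intrinsically photosensitive ganglion cells. Opn3 (encephalopsin) is found in brain and many other tissues, and Opn5 (neuropsin) is an ultraviolet-sensitive opsin of neural tissues. Rgr is a light-driven retinal isomerase of pigment epithelium and Mueller glia, and Rrh (peropsin) is an opsin of pigment epithelium.

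The probe sequences below show which stretch of each transcript was read, and how unlike the probes of both cone opsins are. The Opn1sw probe (A_51_P481147, mm9 chr6:29329787-29329846, minus strand) and the Opn1mw probe (A_66_P121951, mm9 chrX:71383815-71383874, plus strand) begin at bases 485 and 492 of their transcripts. At the best alignment without gaps they overlap by 44 bases, of which 24 match (54.5%), and the matching bases are in capitals.
Opn1sw: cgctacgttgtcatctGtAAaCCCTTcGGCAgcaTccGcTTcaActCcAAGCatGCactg
Opn1mw: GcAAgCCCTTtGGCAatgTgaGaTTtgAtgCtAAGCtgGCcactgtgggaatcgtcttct
The only Opn4 probe (A_55_P2061879, mm9 chr14:35406140-35406199, minus strand) and the Rrh probe that joins exons across an intron (A_66_P103975, mm9 chr3:129516222-129518491, minus strand) are shown because the calls for melanopsin rest on the one and the other reads a different stretch of peropsin than the tested probe.
Opn4: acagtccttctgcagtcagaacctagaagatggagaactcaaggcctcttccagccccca
Rrh: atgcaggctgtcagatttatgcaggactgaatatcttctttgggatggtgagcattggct

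Values are log2 of the background-subtracted intensity over the array's 75th percentile, so that 0 is the level of that percentile, and differences are on the same log2 scale. A signal not well above background gives only a bound. Between 57.3% and 67.8% of 59305 gene spots were well above background on each array, none was saturated, and the 75th percentile ran from 897 to 1138 intensity units. B4KO alone lay on 1 of 2 slides and WT and Isl1KO shared the other, so B4KO and slide cannot be told apart. Each day lay in its own column of the slides, so day and array position cannot be told apart either. Of the targeted genes, the Isl1 probe A_66_P112935 read -1.24, -0.44 and -1.63 in Isl1KO against -0.60, 1.45 and -0.051 in WT at DD10, DD16 and DD23, while Isl1 probe A_52_P337246 differed from WT by 0.37, -0.76 and -0.26. The Bhlhe23 probe was not well above background in B4KO at DD16 and DD23, and in Isl1KO at DD23. At DD10 it read -3.20 in WT and -3.41 in B4KO. These probes thus do not establish the loss of either gene.

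**Figure D1:**
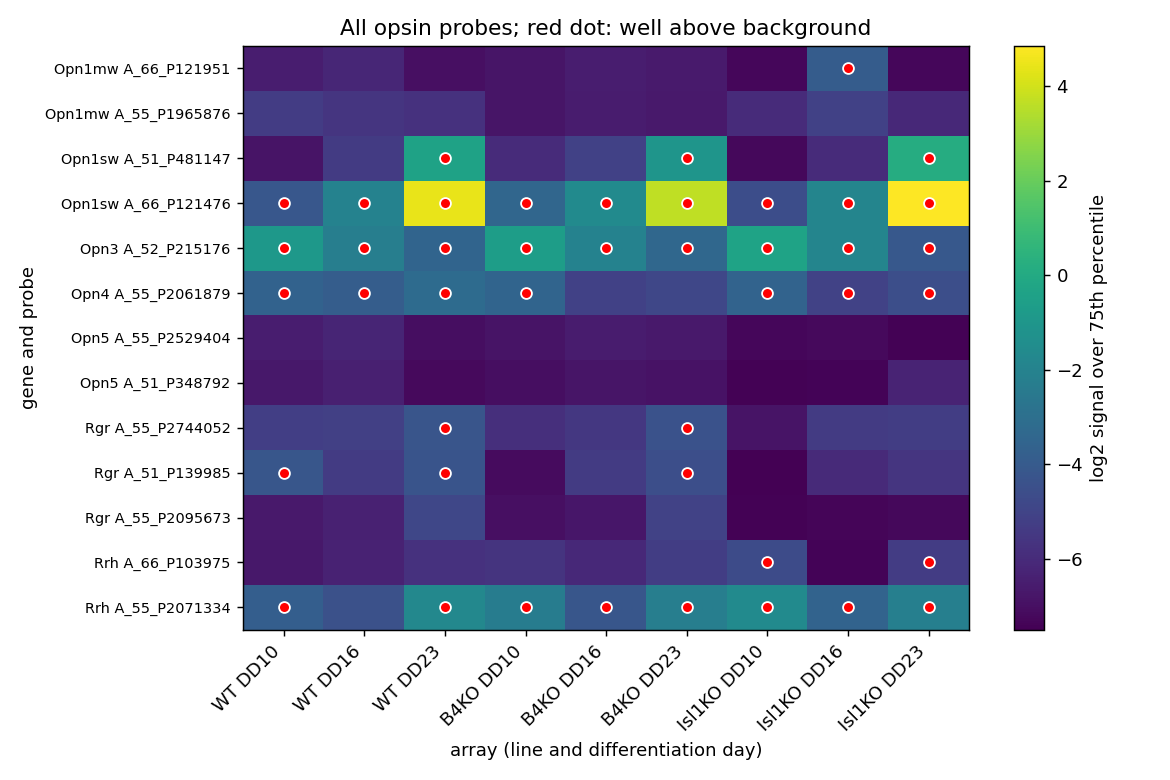
Log2 signal over the array's 75th percentile (colour) for all 13 opsin probes (rows) on the 9 arrays (columns), with a red dot where the spot was well above background. Opn1sw and Opn3 were detected on all 9 arrays, Opn5 on none, and Opn1mw on 1.

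Opn1sw rose at both steps, and its rise from DD16 to DD23 was the larger. On the tested probe (A_66_P121476, mm9 chr6:29327438-29327497, from base 1583 of the transcript) the log2 signal was -4.16, -2.01 and 4.44 in WT at DD10, DD16 and DD23. In B4KO it was -3.40, -1.59 and 3.68. In Isl1KO it was -4.60, -1.89 and 4.84. The 3 days did not overlap, every array was well above background, and the order DD10, DD16, DD23 held in each line. In intensity units, Opn1sw in WT went from 63.3 to 234 and then to 20370, with a scanner error-model SD of 12.9, 26.1 and 2037.

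The modelled Opn1sw difference was 2.22 from DD10 to DD16 (SE 0.41, limma adjusted p = 0.00917), a 4.67-fold rise. From DD16 to DD23 it was 6.15 (SE 0.41, limma adjusted p = 0.000752), a 71.1-fold rise. Over the whole interval the rise was 332-fold. Opn1sw kept both calls in all 17 alternatives run for each, but its other probe, fitted on its own, did not pass from DD10 to DD16. In bulk organoids, more cones and more Opn1sw RNA per cone cannot be told apart, and the same holds for every gene below.

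The second Opn1sw probe, A_51_P481147, whose sequence is given above, was dimmer. It was well above background on the 3 DD23 arrays, at -0.36 in WT, -1.04 in B4KO and 0.13 in Isl1KO, and on none of the 6 earlier arrays. Its DD23 signal was at least 18.7-fold higher than at DD16 and at least 21.8-fold higher than at DD10, each dim value being raised to the lowest signal well above background on its array. With each of 36326 probes fitted on its own, this probe passed from DD16 to DD23 (5.05, limma adjusted p = 0.00117). It met the filter of 3 arrays only through its DD23 arrays, so that pass is no separate support for the rise. From DD10 to DD16, between spots not well above background, this probe did not pass (1.20, limma adjusted p = 0.0761). Both Opn1sw probes placed the lines in the same order at DD23, with Isl1KO highest and B4KO lowest, in 1 sample each.

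Opn1mw gave almost no signal. Probe A_55_P1965876 (mm9 chrX:71396020-71396079) was not well above background on any array, with intensities of 9.07 to 28.9. Probe A_66_P121951 was well above background in Isl1KO at DD16 alone, at an intensity of 63.5 (scanner error-model SD 9.84), and lay between 6.07 and 12.9 on the other 8 arrays. With the dim spots raised to the lowest signal well above background, that single spot was 1.23-fold above WT at DD16 and 2.81-fold above Isl1KO at DD23. At DD23, where Opn1sw stood at 3.68 to 4.84, neither Opn1mw probe was well above background in any line. Levels of different probes are not compared, and a low Opn1mw level was not detectable where the spot was dim.

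**Figure D2:**
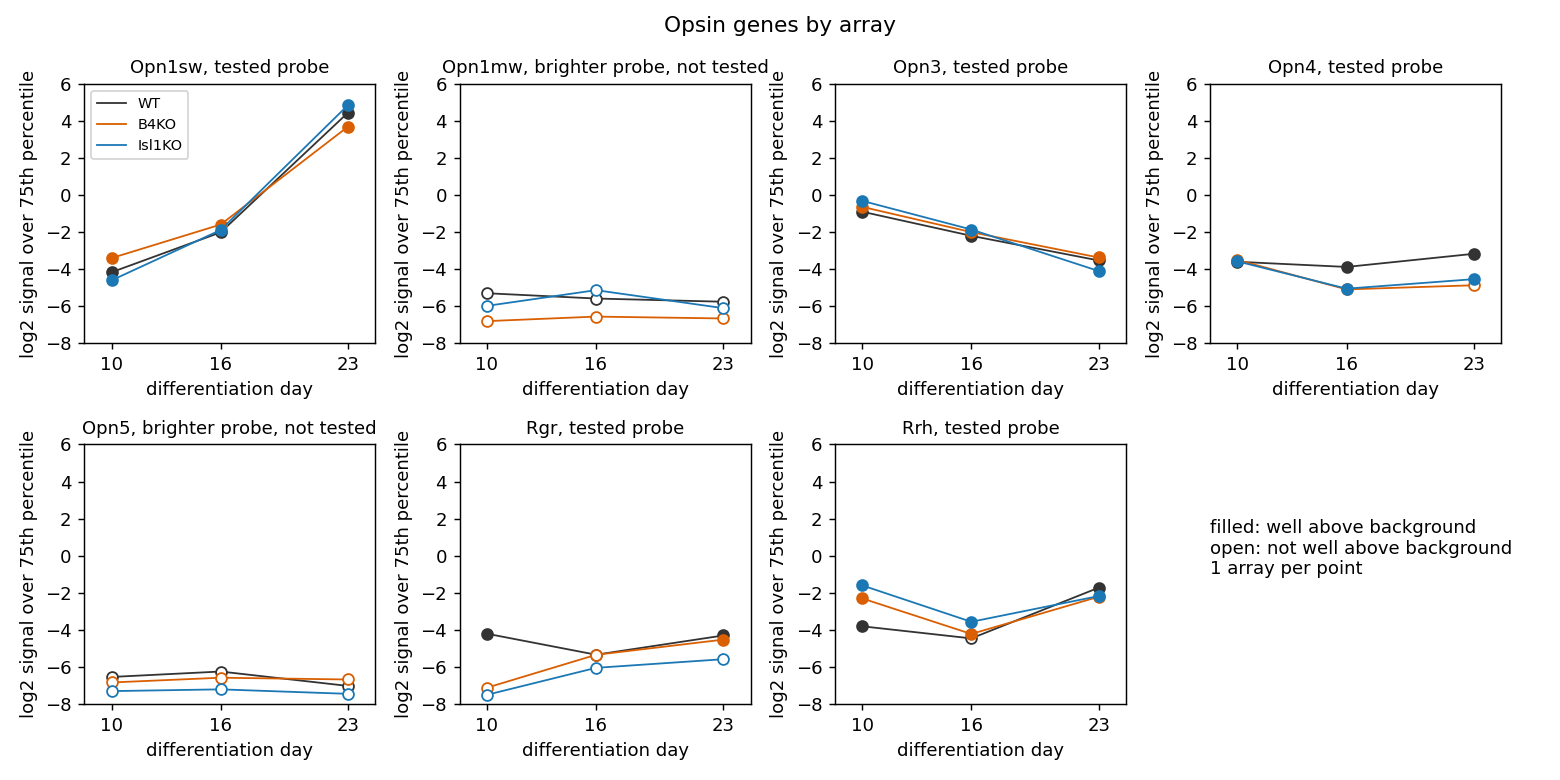
Log2 signal over the array's 75th percentile (y axis) against differentiation day (x axis) for each opsin gene, 1 array per point, coloured by line; filled points were well above background. Opn1sw climbs from between -4.60 and -3.40 at DD10 to between 3.68 and 4.84 at DD23, Opn3 falls in every line, and Rrh is lowest at DD16.

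Genes of the cone pathway, from a list chosen with earlier results known, were read beside Opn1sw. Over all genes tested, 21.9% rose and 18.8% fell from DD10 to DD16, and 19.3% rose and 21.9% fell from DD16 to DD23. Of 14 cone phototransduction genes tested, 10 rose and none fell from DD10 to DD16, with a median difference of 2.08 against 0.034 over all genes. From DD16 to DD23, 11 rose and none fell, with a median of 1.57 against 0.0085. At DD10, 10 or 11 of the 14 were well above background, and 12 to 14 at DD16, so a rise from an undetected spot is only a bound. The steps differed between genes. Gngt2, the cone transducin gamma subunit, rose by 7.40 and then by 3.05, Pde6c, the cone phosphodiesterase, by 5.19 and then 1.12, and Arr3, the cone arrestin, by 1.23 and then 5.49. Gnat2 rose by 3.56 and then 3.22. Arr3 and Opn1sw were thus the genes named here whose larger rise came after DD16. That contrast between steps was not itself tested, and for a gene undetected at DD10 the size of its first step is uncertain. The 6 cone marker genes are all among those 14 and so add no separate count. All rose at both steps, with 4 or 5 of 6 well above background at DD10 and all 6 later. Their summed log2 level went from between -1.72 and -1.36 at DD10 to between 6.91 and 7.16 at DD23. Here and below, that level is the log2 of the summed unlogged signals of the tested genes, so the brightest genes weigh most.

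Regulators of cone fate and cone opsin choice were also read. Their list includes Nrl and Nr2e3, which also serve here as rod markers. At DD10, 17 of the 20 tested were well above background on each array, and later all 20 were. Of 20 tested, 12 rose, 1 fell and 7 did not pass from DD10 to DD16 (median 1.01, against 0.034 over all genes, of which 40.7% were called). From DD16 to DD23, 10 rose, 2 fell and 8 did not pass (median 0.61, against 0.0085 over all genes, of which 41.2% were called). Crx, the photoreceptor homeodomain factor, rose by 4.13 and then 1.52. Thrb, the thyroid hormone receptor required in mouse for middle-wavelength opsin, rose by 2.41 to DD16 and differed by -0.046 afterwards (limma adjusted p = 0.884). Rxrg, the retinoid receptor that holds back short-wavelength opsin in mouse, rose by 2.33 and then 1.43. Rorb and Rora, orphan receptors that act on mouse Opn1sw, rose by 1.84 and 0.87 to DD16, and Rora rose by a further 0.67. Sall3, needed in mouse for short-wavelength opsin, fell by 1.74 and then rose by 1.38. Nr2f1 and Nr2f2, nuclear receptors with a role in cone opsin patterning in mouse, fell by 1.29 and 0.90 from DD16 to DD23.

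Rod phototransduction genes were read in the same way. Of 10 tested, 3 rose by DD16, where 21.9% of all genes rose, and 8 rose from DD16 to DD23, where 19.3% did. Their medians were 0.57 and 2.67, and none fell. At DD10, 5 to 7 of the 10 were well above background, and 7 or 8 at DD16, so some of these differences are only bounds. Pde6b, a rod phosphodiesterase subunit, differed by 0.68 and then rose by 7.32.

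In the RefSeq promoter windows of assembly GRCm38.p6, 250 bases before to 50 after the start, 6 of the 7 opsins had an entry. The motif AGGTCA, a half-site of nuclear receptors, was searched on both strands. It occurred in 16.3% of 32851 windows and, among the opsins, only in Opn1sw, where it matched 202 bases before the start in forward and 132 bases before the start in reverse orientation. The stretch from 210 to 121 bases before the Opn1sw start (chr6:29380634-29380723, minus strand, GRCm38.p6) is printed with both matches in capitals, because the receptors above belong to that family.
Opn1sw upstream: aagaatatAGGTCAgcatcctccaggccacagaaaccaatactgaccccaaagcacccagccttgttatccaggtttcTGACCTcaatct
The motif TAATCC, the core that Otx2 and Crx bind, occurred in 7.06% of windows and, among the opsins, only in Rgr, 167 bases before its start. These are letter matches in short windows and say nothing about binding.

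Opn3 fell at both steps and in every line. Its single probe (A_52_P215176, mm9 chr1:177592823-177592882, minus strand) read -0.90, -2.20 and -3.53 in WT at DD10, DD16 and DD23. It read -0.64, -2.001 and -3.37 in B4KO, and -0.31, -1.86 and -4.10 in Isl1KO. All 9 spots were well above background and the days did not overlap. Opn3 fell by 1.40 to DD16 (SE 0.23, limma adjusted p = 0.00658) and by a further 1.64 to DD23 (SE 0.23, limma adjusted p = 0.00384). At DD23 the Opn3 level was 8.26-fold lower than at DD10, and both steps passed in all 17 alternatives.

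Markers of forebrain and hypothalamus were also read over these days. Of 5 tested, 4 fell to DD16, where 18.8% of all genes fell, and 2 fell afterwards, where 21.9% did. None rose, and Otp and Sim1 were not well above background on any array. Emx1 and Emx2, homeodomain factors of the cortex, fell by 2.93 and 2.33 to DD16. The summed log2 level of the list was 5.13 in WT, 3.98 in B4KO and 4.18 in Isl1KO at DD10, and between 1.09 and 1.91 at DD23. Opn3 at DD10 was lowest in WT, where that list was highest by its summed level. By its median at DD10 (1.16 in WT, 0.70 in B4KO and 1.39 in Isl1KO) the list was highest in Isl1KO, where Opn3 was highest too. The part of these cells in the Opn3 decline was not tested.

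Opn4 was dim, and its calls were less stable. Its probe read -3.60, -3.88 and -3.17 in WT, -3.50, -5.09 and -4.86 in B4KO, and -3.58, -5.05 and -4.53 in Isl1KO. At DD10 the 3 lines had intensities of 93.7, 95.2 and 95.4, closer together than their scanner error-model SDs of 11.3 to 13.7. After DD10 both knockouts lay below WT, and the B4KO spots at DD16 and DD23 were not well above background. Opn4 fell by 1.11 to DD16 (SE 0.33, limma adjusted p = 0.0420), and the DD10 and DD16 arrays did not overlap. From DD16 to DD23 the difference was 0.48 (limma adjusted p = 0.294). The fall passed in 8 of 17 alternatives: adjusted p was 0.165 with WT and Isl1KO alone, 0.0851 with no filter on dim probes, 0.0623 with a filter of 1 array, and 0.0773, 0.130, 0.124, 0.150, 0.137 and 0.0686 without WT DD16, B4KO DD10, B4KO DD16, Isl1KO DD10, Isl1KO DD16 and Isl1KO DD23. Without WT DD10, Opn4 also passed from DD16 to DD23 (difference 0.48, adjusted p = 0.0337).

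The melanopsin cascade and the genes of melanopsin ganglion cells moved both ways. Of 13 tested, 4 rose and 4 fell to DD16 (median -0.040), and 3 rose and 5 fell from DD16 to DD23 (median -0.39). The shares of all genes called at these steps, 40.7% and 41.2%, compare with 8 of 13 at each. Tbx20, a T-box factor of melanopsin cells in mouse, fell by 2.42 and then 2.32. Eomes, a T-box factor needed for these cells in mouse, fell by 1.84 to DD16. Pou4f2, a ganglion cell factor, fell by 2.84 after DD16. Adcyap1, the neuropeptide PACAP, rose by 1.73 and then fell by 1.57. Arrb1, a beta-arrestin, rose by 0.53 and then 0.44, and Plcb4, the phospholipase C of the melanopsin cascade, fell by 0.50 and then rose by 0.43. Trpc7, a channel that melanopsin opens, was not well above background on any array. Of 9 ganglion cell markers, 5 rose and 1 fell to DD16, and 3 rose and 4 fell afterwards, against the same 40.7% and 41.2% of all genes called. Their summed log2 level at DD16 and DD23 was 5.22 and 4.86 in WT, 5.09 and 4.20 in B4KO, and 4.55 and 4.09 in Isl1KO. Opn4 also had WT above both knockouts on these days. Its dim B4KO spot at DD16 gave no order of the knockouts. At DD23 Isl1KO was 1.13-fold above B4KO, with the dim B4KO spot raised to the lowest signal well above background. The markers had B4KO above Isl1KO on both days. At DD10 the marker level was 4.52 in WT, 4.67 in B4KO and 4.28 in Isl1KO, while Opn4 was nearly equal. The part of ganglion cells in the Opn4 levels was not tested.

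Opn5 was not detected. Its probes A_51_P348792 (mm9 chr17:42694403-42694462) and A_55_P2529404 (mm9 chr17:42731569-42731628) were not well above background on any of the 9 arrays, with intensities between 5.38 and 12.5.

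Rrh had its lowest level at DD16 in every line. The tested probe (A_55_P2071334, mm9 chr3:129511519-129511578, from base 1308 of the transcript) read -3.80, -4.45 and -1.72 in WT, -2.30, -4.21 and -2.21 in B4KO, and -1.60, -3.56 and -2.17 in Isl1KO. WT at DD16 was the only one of these spots not well above background. The DD23 arrays lay above the DD16 arrays without overlap, whereas DD10 overlapped with both, because WT at DD10 was low. Rrh fell by 1.51 to DD16 (SE 0.47, limma adjusted p = 0.0457) and rose by 2.04 to DD23 (SE 0.47, limma adjusted p = 0.0170), a 4.11-fold rise. Between DD10 and DD23 the difference was 0.53 (limma adjusted p = 0.365).

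The Rrh fall passed in 8 of 17 alternatives and the rise in 13 of 17. With WT and Isl1KO alone the adjusted p was 0.210 for the fall and 0.0854 for the rise, and with no filter or a filter of 1 array it was 0.0907 and 0.0672 for the fall. The rise did not pass without WT DD16 (0.0602), B4KO DD16 (0.0604) or Isl1KO DD16 (0.0581), and the fall did not pass without WT DD16 (0.114), B4KO DD10 (0.140), B4KO DD16 (0.134), B4KO DD23 (0.0695), Isl1KO DD10 (0.160) or Isl1KO DD16 (0.116). The second Rrh probe, A_66_P103975, was well above background in Isl1KO at DD10 (-4.69) and DD23 (-5.29) and on no other array, and in Isl1KO at DD16 it was at -7.39. In that line its DD10 signal was 1.37-fold above the lowest signal well above background at DD16. The DD23 signal lay under that same limit and gives no bound on a rise. In WT and B4KO it was never well above background.

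Rgr stayed close to background. Its tested probe (A_51_P139985, mm9 chr14:37850828-37850887) was well above background on exactly 3 arrays, at -4.20 in WT DD10, -4.30 in WT DD23 and -4.52 in B4KO DD23. Probe A_55_P2744052 (mm9 chr14:37851365-37851424) was well above background in WT DD23 (-4.24) and B4KO DD23 (-4.40), and probe A_55_P2095673 (mm9 chr14:37848099-37848158) on no array. In Isl1KO no Rgr probe was well above background on any day. The WT DD23 signal was 2.15-fold and 2.01-fold above Isl1KO DD23 on the 2 detected probes, in 1 array each. The first fold takes the dim Isl1KO spot at the lowest signal well above background, the second at its own higher value. Neither is a strict minimum. No modelled Rgr difference between days passed, the smallest adjusted p being 0.0709 for DD10 to DD23 (difference 1.47, limma). With no filter on dim probes, or a filter of 1 array, another Rgr probe was read and that difference passed (1.34, adjusted p = 0.0147 and 0.0111). Without WT DD10, all 3 day differences of Rgr passed, at 1.55, 0.77 and 2.32, from a probe then well above background on 2 arrays.

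Pigment epithelium genes did not rise with Rrh. Of 9 such markers tested, none rose and 7 fell to DD16, where 18.8% of all genes fell, and none rose and 3 fell to DD23, where 21.9% did. Rpe65, the isomerohydrolase that defines this tissue, was not well above background on any array. The melanosome gene Pmel fell by 2.19 and then 1.60. The summed log2 level of the list was between 5.84 and 5.97 at DD10, between 4.19 and 4.72 at DD16 and between 3.38 and 4.07 at DD23. Of 8 Mueller glia markers, 3 rose and 2 fell at each step (40.7% and 41.2% of all genes called), and their summed level stayed between 6.81 and 7.61.

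Of 12 retinoid cycle genes tested, 7 rose and 2 fell to DD16 (median 0.45), and 5 rose and 2 fell to DD23 (median 0.47), where 40.7% and 41.2% of all genes were called. Rlbp1, the retinal carrier of pigment epithelium and Mueller glia, fell by 1.83 and then rose by 2.32, the same 2 directions as Rrh. Dhrs3, a retinal reductase, rose by 6.39 and then fell by 2.45. Abca4, the retinoid transporter of photoreceptor discs, rose by 0.63 and then 1.69. Lrat and Rdh8, like Rpe65, were not well above background on any array.

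**Figure D3:**
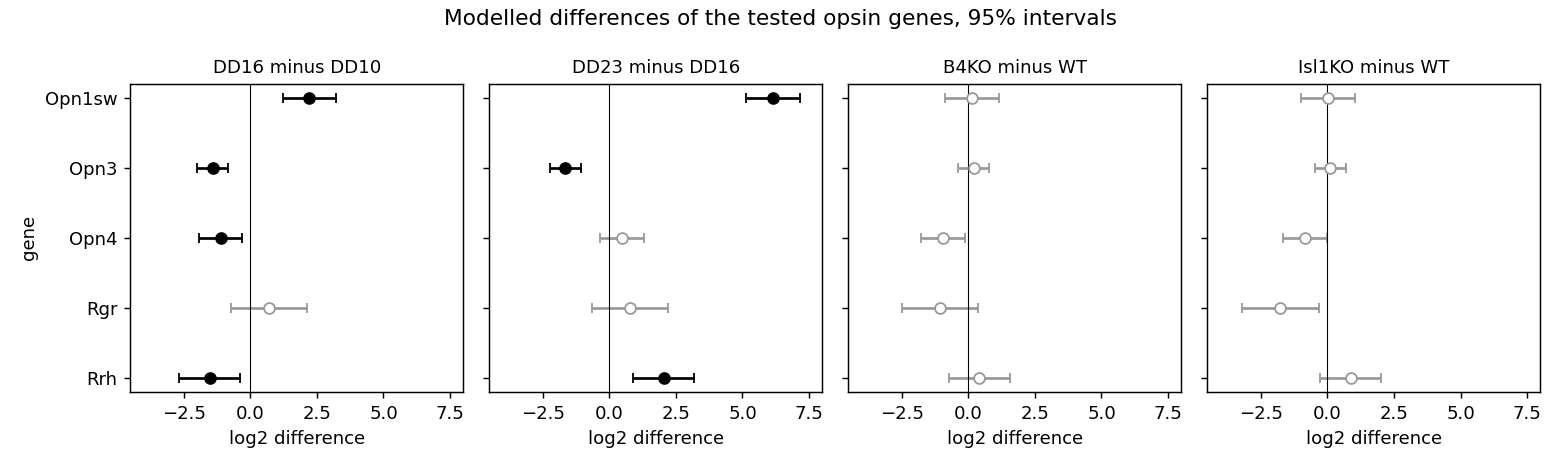
Modelled log2 differences (x axis, points) with 95% intervals (bars) for the 5 tested opsin genes in 4 comparisons; filled points have a limma adjusted p of at most 0.05. Filled points occur between days, 4 at the DD10 to DD16 step and 3 at the DD16 to DD23 step, and none between lines.

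From DD10 to DD16, 4 of the 5 tested opsins passed, against a background of 40.7% of all tested genes. From DD16 to DD23, 3 of 5 passed, against 41.2%. From DD10 to DD23, 2 of 5 passed, Opn1sw and Opn3, against 60.7%. With so large a share of all genes called, these counts are no result about opsins as a group, and the 5 genes did not move together: Opn1sw rose, Opn3 fell, and Rrh fell and rose.

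No opsin passed between lines. For B4KO against WT 0 of 5 passed, where 22.0% of all genes did. For Isl1KO against WT 0 of 5 passed, against 0.00424% of all genes, and for Isl1KO against B4KO 0 of 5, against 21.9%. Those 3 counts are also 0 with eBayes trend and robust in limma, and at an unadjusted p under 0.05 they are 1 (Opn4), 2 (Opn4 and Rgr) and 0, where the shares of all genes are 36.5%, 8.15% and 34.9%. For Opn1sw, Opn3 and Rrh the 95% intervals of the knockout differences included 0. For Opn1sw, B4KO minus WT was 0.14 (95% interval -0.86 to 1.15) and Isl1KO minus WT 0.032 (-0.97 to 1.04). For Opn3 the same differences were 0.21 (-0.37 to 0.78) and 0.12 (-0.45 to 0.69). For Rrh they were 0.42 (-0.73 to 1.56) and 0.88 (-0.26 to 2.03).

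Opn4 and Rgr had the lowest fitted values in the knockouts. For Opn4, B4KO minus WT was -0.94 (95% interval -1.76 to -0.12, limma adjusted p = 0.0998) and Isl1KO minus WT was -0.84 (-1.66 to -0.019, adjusted p = 0.608). For Rgr they were -1.05 (-2.48 to 0.39, limma adjusted p = 0.250) and -1.76 (-3.19 to -0.33, adjusted p = 0.560), values that rest on spots at the limit of detection. Without WT DD10, Opn4 passed for B4KO against WT (-1.41, adjusted p = 0.00563).

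A further limma fit tested whether a knockout stood differently against WT at DD23 than it did on average at the earlier days. No opsin passed for B4KO or for Isl1KO, and the share of all genes was 0% in both. With eBayes trend and robust the opsin counts were again 0, and 1 and 2 opsins had an unadjusted p under 0.05, as had 6.06% and 4.92% of all genes. Opn1sw departed by -1.35 in B4KO (SE 0.43, limma adjusted p = 0.814). In Isl1KO, Opn3 departed by -1.03 (SE 0.19, limma adjusted p = 0.787) and Rrh by -1.9995 (SE 0.67, limma adjusted p = 0.971).

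The genes most like each opsin over the 9 arrays were ranked by Pearson's r among 15087 genes with an established symbol, as a description. The arrays share day, line and slide, and genes with the same day pattern correlate highly. For Opn1sw the leading gene was Ccdc136 (r = 0.998), followed by Snrk, Ccdc126, Sat1 and Kcna6 (down to 0.994). For Opn3 it was Rgs19 (0.996), followed by Rbm3, Efna5, Mtap and Id2. For Rrh the leading gene was Rnls (0.958), followed by Stap2, Iffo1, Pea15a and Me2. For Rgr it was Mpc1 (0.949), followed by Angptl7, Spink4, Myt1l and Snx13. For Opn4 it was Nsun4 (0.895), followed by Zbtb8a, Magee2, Gal3st4 and Plekhm1, the lowest likeness of the 5.

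Ccdc136 is also the next protein-coding gene after Opn1sw in the RefSeq table. Its log2 signal was 2.01, 2.83 and 5.10 in WT, 2.12, 2.96 and 4.92 in B4KO, and 2.01, 2.87 and 5.19 in Isl1KO. At DD23 it was lowest in B4KO and highest in Isl1KO, as Opn1sw was, by small differences between single arrays. Because Ccdc136 ranked first for likeness over these same arrays, that shared order is no separate observation. Ccdc136 rose by 0.84 and then 2.18, and Calu, the gene on the other side of Opn1sw, differed by -0.17 and then fell by 0.48. Flnc, beyond Ccdc136, fell by 1.24 from DD16 to DD23.

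Chml, a Rab escort protein gene that lies within the span of Opn3 in the same table, read 0.14, -0.24 and -1.35 in WT and fell by 0.56 and then 1.03. Kmo, on the other side of Opn3, differed by -0.18 and 0.089 (limma adjusted p = 0.536 and 0.761). Lrit1, whose span overlaps that of Rgr, was not well above background at DD10 in any line and reached 2.54, 2.23 and 2.90 at DD23 in WT, B4KO and Isl1KO. Strand is not given in that table. Beside Rrh, Lrit3 rose by 1.10 and then 1.29, without the dip of Rrh at DD16, and Gar1 fell by 0.62 after DD16.

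**Figure D4:**
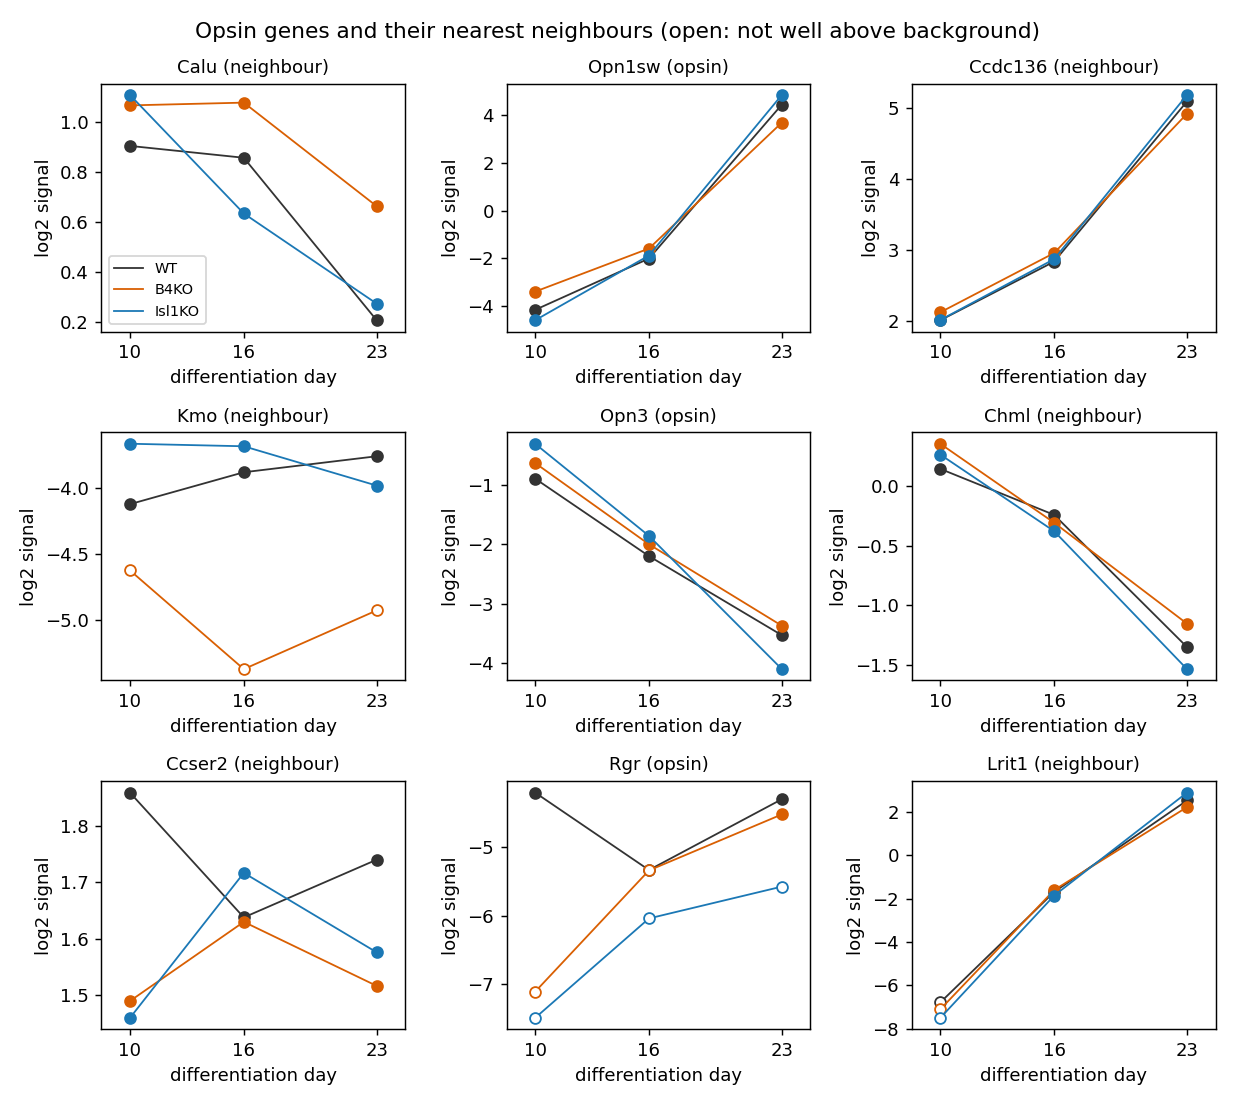
Log2 signal (y axis, own scale in each panel) against differentiation day (x axis) for Opn1sw, Opn3 and Rgr (middle column) and a gene on either side in the RefSeq table, 1 array per point, coloured by line, open where not well above background. Ccdc136 climbs with Opn1sw to between 4.92 and 5.19 at DD23, Chml falls with Opn3, and Lrit1 rises in every line and most Rgr points are open.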

How the data were processed

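Total RNA of 9 pooled organoid samples was hybridised to single-colour Agilent arrays. Agilent Feature Extraction 12.0.3.1 gave the intensity per spot, per the submitters' processing notes; the processed intensity is background-subtracted, per the file headers. A table of values, also deposited, holds the processed intensity over a constant per array. Flags (0 or 1) for signal well above background were deposited beside it, per the file headers. Probe coordinates are mm9, per the file headers.

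Each log2 value is relative to the 75th percentile of intensity on its array. Of the probes, 32994 were named through RefSeq (GRCm38.p6) and 23611 kept their name in the file. Each gene was its brightest probe well above background on at least 3 arrays. limma 3.58.1 in R 4.3.3 fitted line and day as additive terms over 9 arrays (4 residual degrees of freedom), with Benjamini-Hochberg adjustment at 0.05 over 23594 genes. A second model added DD23 terms per knockout (2 residual degrees of freedom). The spread is departure from additivity, since nothing was replicated, and precision is limited by how few arrays there are. The fits were tested on simulated data.

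Named genes were the opsins, the targeted genes, the 5 most correlated genes per tested opsin, list members with large changes and the nearest genes on each side. The opsins and all lists were chosen with earlier results of these data known. The 4 pluripotency markers tested did not pass at either day step; of 8 retinal progenitor markers, 4 rose and 1 fell to DD16, then 5 fell. Of 5 rod markers, 3 and then 4 rose, and only 1 or 2 were well above background at DD10. Alternatives were quantile normalization, normexp (offset 50), the deposited table, other filters and probe rules, eBayes trend and robust, WT and Isl1KO alone, and each array left out. Protein sequences were not used here. Some named list members are not reported here.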

Additional observations from a re-analysis of the deposited data

Results flagged for a closer look

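Pairs of single arrays moved in opposite directions, each by more than 2 scanner error-model SDs of the difference; none of these contrasts was tested. Opn1sw in B4KO was above WT at DD10 by 0.76 and differed from WT by -0.75 at DD23. Opn3 in Isl1KO was above WT at DD10 by 0.58 and differed by -0.57 at DD23. Rrh differed from DD10 to DD23 by 2.08 in WT and by -0.58 in Isl1KO. Rrh in B4KO differed from WT by 1.503 at DD10 and -0.49 at DD23, and in Isl1KO by 2.20 and -0.45. Of these Rrh differences, all but that within Isl1KO involve WT DD10 or WT DD23. In WT DD10 the summed log2 level of forebrain markers was 5.13 (3.98 and 4.18 in the knockouts) and that of retinal progenitor markers 6.17 (7.10 and 6.81). By the median of the forebrain markers WT DD10 did not stand apart, at 1.16 against 0.70 in B4KO DD10 and 1.39 in Isl1KO DD10. The part of the WT DD10 array in these differences was not tested.

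Probes outside the tests gave signal in Isl1KO where WT of the same day was not well above background. The Opn1mw probe A_66_P121951 stood at -3.91 in Isl1KO DD16. The Rrh probe A_66_P103975 stood at -4.69 in Isl1KO DD10 and -5.29 in Isl1KO DD23. The lowest intensity well above background was 30.3, 26.9 and 22.1 in Isl1KO and 49.5, 50.9 and 29.9 in WT at DD10, DD16 and DD23. Both Rrh spots, at intensities of 44.0 and 23.9, lay under the WT limit of their day and show no excess over WT. The Opn1mw spot, at 63.5, lay above it.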

How the results depend on the processing

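Opn1sw and Opn3 kept direction and call at each day step in all alternatives run. Fitted on its own, the dimmer Opn1sw probe did not pass from DD10 to DD16. For DD16 minus DD10, 2 opsins (Opn1sw and Opn3) in place of 4 passed with no filter on dim probes, with signal on at least 1 array, and with WT and Isl1KO alone, and 2 to 5 when 1 array was left out. For DD23 minus DD16 the range without 1 array was 2 to 5, for DD23 minus DD10 2 to 4, for B4KO minus WT 0 to 1 and for Isl1KO minus B4KO 0 to 1; each highest count came without WT DD10, and the cause was not tested. With no filter 1 opsin passed for B4KO minus WT (Opn1mw) and 1 for Isl1KO minus WT (Opn5), both from spots not well above background. Among values near 0 that did not pass, leaving out 1 array turned the sign: Rrh DD23 minus DD10 ran from -0.073 to 0.97, Opn1sw B4KO minus WT from -0.28 to 0.69, Rrh B4KO minus WT from -0.18 to 0.98, Opn1sw Isl1KO minus WT from -0.38 to 0.42 and Opn3 Isl1KO minus WT from -0.10 to 0.45. The mean of a gene's probes gave -0.072 for Opn1sw Isl1KO minus WT. Over all genes, Isl1KO minus WT called 1 gene, and 11 with normexp, 14 with eBayes trend and robust, 3 with WT and Isl1KO alone and 4548 with no filter. DD16 minus DD10 called 9606, and 4899 with WT and Isl1KO alone, where fewer arrays enter. The model compares days within lines; beyond that, no paired analysis was possible because the labels give no replicate numbers to block on. Levels below the lowest signal well above background, an intensity of 22.1 to 50.9, could not be read.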
